A study of Mus musculus with 12 samples.

Results

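Signaling through the BCR is held in check by a group of surface receptors and phosphatases, and 10 of their genes are described here in splenic resting B cells with and without Runx1. They are Cd22, Cd72, Fcgr2b, Siglecg, Lair1, Pirb, Cd5, Btla, Ptpn6 and Ptpn22. The members were taken by name: each is the row of the count table whose Ensembl identifier carries that symbol, which gave 10 of the 37991 identifiers counted. All 10 were among the 13538 genes kept by the filter on low counts and tested. Pirb is entered in the annotation as Lilrb3 and was found by its synonym.

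RNA-seq was carried out on B cells of mice aged 8 weeks in 4 groups of 3 biological replicates, 12 samples in all. Control mice carried the CD23-iCre transgene alone (Cre-only), and CD23-iCre/Runx1 ck/o mice (Runx1 c-k/o) carried the same transgene with a Runx1 allele whose exon 4 is flanked by LoxP sites. Both genotypes thus express Cre from the CD23 promoter, which is active from the transitional B cell stage. Runx1 is therefore lost late in B cell development. Each genotype was measured as resting cells (0 h) and after 3 h with anti-IgM + IL-4, where anti-IgM cross-links the BCR and IL-4 is a helper T cell cytokine. The resting cells had been purified by removal of non-B and CD43+ cells.

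The receptors share a mode of action. Most carry an immunoreceptor tyrosine-based inhibitory motif (ITIM) in the cytoplasmic tail, a short stretch around a tyrosine that the kinase LYN phosphorylates when the BCR is engaged. The phosphorylated motif recruits the tyrosine phosphatase SHP-1, the product of Ptpn6, or the lipid phosphatase SHIP1, which reverse the early steps of BCR signaling. PTPN22 works separately from the receptors and removes phosphate from SRC and SYK family kinases. Loss of several of these genes in mice lowers the threshold of B cell activation and favors autoantibodies.

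The coding sequences of the receptors were searched for matches to the pattern of this motif. One matching stretch per receptor is printed below from the annotated transcripts of mm9, 5′ to 3′, with the codon of its tyrosine in capitals. Cd22, Siglecg, Fcgr2b, Btla, Pirb, Lair1 and Cd5 are represented by the match nearest to the carboxyl end, and Cd72, a type II protein whose tail is its amino end, by the match nearest to that end.
Cd22: gtagacTATgtgaccctc
Siglecg: tctgatTACacagaggtc
Fcgr2b: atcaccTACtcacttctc
Btla: attgttTATgcttctttg
Pirb: agtgtaTATgctactctg
Lair1: agcacaTATgcagccatc
Cd5: tctgctTATccagctctg
Cd72: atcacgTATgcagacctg
The tyrosine lay 5 residues before the end of the protein in Cd22, 6 in Siglecg and Lair1, 17 in Pirb, 21 in Fcgr2b, 30 in Cd5 and 32 in Btla, and at position 7 in Cd72. The pattern searched (serine, isoleucine, valine or leucine, any residue, tyrosine, any pair of residues, then isoleucine, valine or leucine) is loose. It occurred in 47.8% of the 21734 proteins of the annotation, and also once each in Ptpn6 and Ptpn22, so a match alone is a description of the sequence. Whether a printed stretch works as an ITIM was not tested. Further matches were not printed, among them those 29 residues before the end in Siglecg and 93 in Cd5.

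The promoters of Btla and Ptpn22, the 2 genes that passed the test between genotypes, are shown because RUNX1 is a DNA-binding factor that recognizes the hexamer TGTGGT. Both strands were searched for it in the RefSeq windows from 250 bases before to 50 bases after each start, and all 10 genes had a window, 12 in all. The motif was found in 1 window of Btla and 1 of the windows of Ptpn22 and in no window of the other members. Across RefSeq, 16.8% of 32851 windows and 18.9% of 27025 genes held it, and a match is not evidence of a bound site. The 250 bases before the start are printed 5′ to 3′ on the plus strand of GRCm38.p6, with the match, here its reverse complement, in capitals.
Btla, chr16:45224087-45224336: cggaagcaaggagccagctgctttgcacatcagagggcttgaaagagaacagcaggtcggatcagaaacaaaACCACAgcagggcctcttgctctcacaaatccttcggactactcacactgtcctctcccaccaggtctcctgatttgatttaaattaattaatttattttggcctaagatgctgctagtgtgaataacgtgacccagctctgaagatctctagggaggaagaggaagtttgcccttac
Ptpn22, chr3:103860027-103860276: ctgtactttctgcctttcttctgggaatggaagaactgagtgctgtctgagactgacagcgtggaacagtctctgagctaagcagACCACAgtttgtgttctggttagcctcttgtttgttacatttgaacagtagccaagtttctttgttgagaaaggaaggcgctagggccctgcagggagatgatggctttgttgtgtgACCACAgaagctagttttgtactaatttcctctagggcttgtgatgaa
The match in Btla began 178 bases before the start. Those in Ptpn22 began 165 and 48 bases before the start, and another lay 9 bases after it, outside the printed stretch. All were on the opposite strand.

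Between 14442251 and 23641552 counts per library were assigned to genes. Levels are given as normalized CPM, read counts scaled by the library size after TMM normalization. A floor of 3 counts corresponded to 0.130 to 0.199 CPM, for counting error only. B cell markers summed to between 23360 and 29840 CPM at rest, where 7 of the 9 listed genes were matched. The 11 T cell markers summed to 7.0 to 14 CPM in Cre-only and 8.96 to 19.5 CPM in Runx1 c-k/o cells at rest, and to 101 to 120 and 81.6 to 110 CPM at 3 h, when Il7r alone was at 76.5 to 110 CPM. The genes of the CD3 complex, Cd3e, Cd3d and Cd3g, were at most 0.819 CPM in every library. Myeloid markers were present at rest, with a summed level of 289 to 356 CPM in Cre-only and 253 to 496 CPM in Runx1 c-k/o cells, and at 3 h this was 28.9 to 39.4 and 32.4 to 64.3 CPM. All 12 markers of that list had counts in each group, led at rest by Csf1r with 139 to 283 CPM. The 4 B-1 markers summed to 76.0 to 85.6 CPM in Cre-only and 98.6 to 119 CPM in Runx1 c-k/o cells at rest, and the 7 marginal zone markers to 1403 to 1777 and 1957 to 2134 CPM. Most of the latter was Cr2, with 818 to 1075 and 1225 to 1411 CPM, and without it the other 6 markers overlapped between genotypes (585 to 702 and 640 to 814 CPM). Runx1 itself was at 81.8 to 86.7 CPM in Cre-only and 95.7 to 103 CPM in Runx1 c-k/o cells at rest, but the counts cover all exons and do not check the deletion of exon 4. Every library held Xist, at 536 to 785 CPM in Cre-only and 290 to 854 CPM in Runx1 c-k/o cells. Each also held the Y-linked Ddx3y (70.4 to 151 CPM) and Eif2s3y (41.5 to 65.9 CPM). Whether a library mixes cells of male and female mice was not tested. Of the Runx1 c-k/o libraries, 3 stood apart. In Runx1 c-k/o rest replicate 2, the 227 genes that rose on activation in Cre-only cells by a log2 fold change over 3 lay at a median of -2.01 from the mean of the Cre-only 3-h samples on a log2 scale, against -3.11 to -3.03 in the other resting samples. In Runx1 c-k/o 3 h replicate 2, the 787 genes with a log2 fold change under -3 lay a median 0.54 above that mean, against -0.07 to 0.04 in the other 3-h samples. Runx1 c-k/o 3 h replicate 1 had the lowest TMM factor (0.886, against 0.963 to 1.06 elsewhere) and lay at -2.08 on a factor of unwanted variation estimated from the replicates by RUVs, against -0.74 to -0.38 in the other 3-h samples. Where leaving out one of these libraries changed a call or a direction, the value without it is given, singly or within a range over all samples left out.

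**Figure D1:**
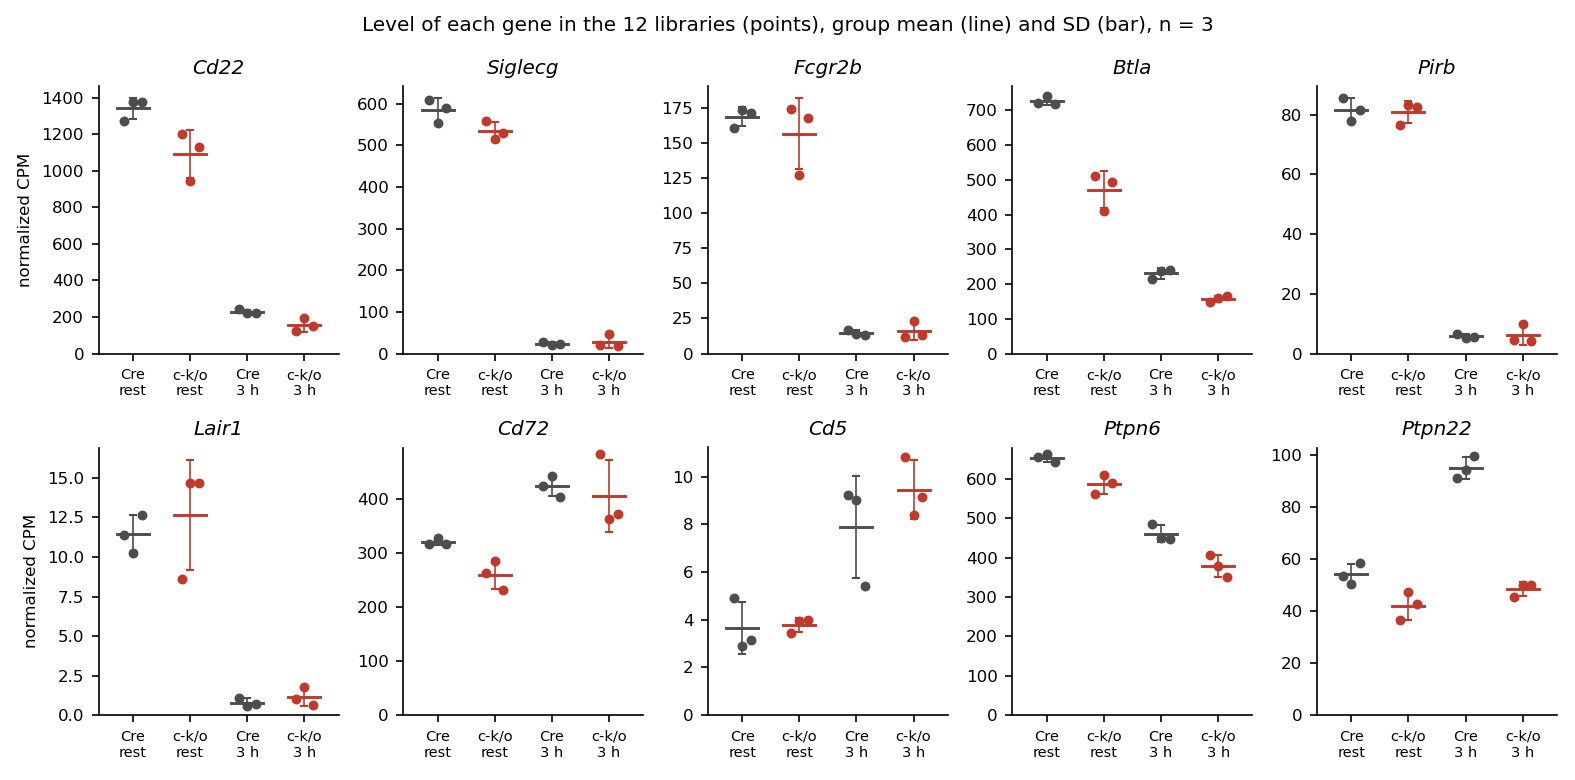
Normalized CPM (vertical axes, each from 0) of the 10 genes in resting and 3-h cells of both genotypes, where points are the 12 libraries, horizontal lines group means and bars SD (n = 3 per group). The receptors Cd22, Siglecg, Fcgr2b, Btla, Pirb and Lair1 are far lower at 3 h than at rest, and for Ptpn22 the 3-h Cre-only samples (91.2 to 99.6 CPM) stand above all others.

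In resting Cre-only cells the members covered a wide range of levels. Per kilobase of exon, Cd22 was the highest with 311 ± 13.7 CPM per kb (SD, n = 3), followed by Ptpn6 with 234 ± 3.58, Btla with 223 ± 3.72, Siglecg with 122 ± 5.99, Cd72 with 93.8 ± 1.88 and Fcgr2b with 43.9 ± 1.77. Pirb (18.3 ± 0.84 CPM per kb) and Ptpn22 (17.6 ± 1.32) followed with overlapping samples, and Lair1 (3.03 ± 0.32) and Cd5 (1.77 ± 0.53) were the lowest. The samples of each other pair of neighbors in this order did not overlap. The order of the 10 genes was the same in resting Runx1 c-k/o cells. In Cre-only cells after 3 h, Ptpn6 (164 ± 7.61 CPM per kb) and Cd72 (124 ± 5.59) led, then Btla (70.9 ± 4.61), Cd22 (52.8 ± 2.83) and Ptpn22 (31.0 ± 1.39). Siglecg, Fcgr2b and Cd5 lay between 3.81 and 4.96 CPM per kb on average, each overlapping its neighbor, and Pirb (1.30 ± 0.17) and Lair1 (0.21 ± 0.07) were last. In 3-h Runx1 c-k/o cells, Ptpn6 (135 ± 10.3 CPM per kb) and Cd72 (119 ± 19.5) overlapped, and Cd5 (4.57 ± 0.60) ranked above Fcgr2b (4.14 ± 1.64) with overlapping samples.

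All 10 genes changed from rest to 3 h with anti-IgM + IL-4 in Cre-only cells. No sample was kept for 3 h without the stimulus, so effects of the stimulus and of culture cannot be told apart. The word activation here names the comparison of 3 h with rest. With p-values from the quasi-likelihood test of edgeR, adjusted by Benjamini-Hochberg across every gene tested, 7 fell and 3 rose at an adjusted p under 0.05, where 36.4% of all tested genes fell and 38.6% rose. The median log2 fold change of the members was -2.11, against 0.03 over all genes. In Runx1 c-k/o cells 7 fell and 2 rose, against 36.6% and 37.7% of all genes, with a median of -2.20 for the members. RNA was compared per total counts in bulk samples, so that fewer cells of a type and less RNA per cell cannot be told apart.

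The largest falls were those of Siglecg, Pirb, Lair1 and Fcgr2b. Siglecg (chr7:50663574-50673728, mm9, plus strand) encodes Siglec-G, a sialic acid-binding receptor that restrains B-1 cells in particular. It was at 610, 553 and 589 CPM in replicates 1, 2 and 3 of resting Cre-only cells and at 27.9, 20.5 and 23.3 CPM after 3 h. The groups were far apart, a 24.5-fold fall (log2 fold change -4.61, standard error 0.32, edgeR adjusted p = 9.30e-08). Siglecg in Runx1 c-k/o cells went from 558, 515 and 529 CPM to 21.4, 47.7 and 17.4 CPM. The replicate 2 value at 3 h was the highest of the 6 samples at that time, and the fall was 18.5-fold (log2 fold change -4.21, standard error 0.31, edgeR adjusted p = 1.90e-07).

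Cd22 (chr7:31650421-31665361, mm9, minus strand) encodes the other B cell Siglec, which binds sialic acids linked α2,6 on the same cell and held 5 matches to the ITIM pattern over its whole length. Its level was 1273, 1374 and 1376 CPM in resting Cre-only cells and 242, 221 and 220 CPM at 3 h. Cd22 thus fell 5.88-fold (log2 fold change -2.56, standard error 0.16, edgeR adjusted p = 5.31e-08). Without Runx1, Cd22 fell from 1201, 945 and 1129 CPM to 121, 195 and 149 CPM, which was 7.05-fold (log2 fold change -2.82, standard error 0.16, edgeR adjusted p = 4.64e-08).

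Fcgr2b (chr1:172890689-172906678, mm9, minus strand) encodes FcγRIIB, the Fc receptor through which bound IgG shuts off the BCR. It was at 161, 174 and 172 CPM in resting and 16.9, 14 and 13.4 CPM in 3-h Cre-only cells, an 11.4-fold fall (log2 fold change -3.51, standard error 0.23, edgeR adjusted p = 6.33e-08). The values in Runx1 c-k/o cells were 174, 128 and 168 CPM at rest and 11.7, 23.2 and 13.0 CPM at 3 h, with no overlap between the times (log2 fold change -3.30, standard error 0.23, edgeR adjusted p = 1.16e-07). In both groups of Runx1 c-k/o cells it was replicate 2 that lay apart from the others.

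Pirb (chr7:3663011-3671993, mm9, minus strand) encodes PIR-B, a receptor for MHC class I found on B and myeloid cells. Its level fell 14.1-fold in Cre-only cells, from 85.4, 77.9 and 81.6 CPM to 6.69, 5.29 and 5.42 CPM (log2 fold change -3.80, standard error 0.26, edgeR adjusted p = 7.72e-08). It fell in Runx1 c-k/o cells from 76.5, 83.2 and 82.5 CPM to 4.44, 9.91 and 4.06 CPM (log2 fold change -3.72, standard error 0.26, edgeR adjusted p = 1.14e-07). Pirb sits in a cluster of closely related Pira genes, of which Pira2 had 23.3 to 31.7 CPM at rest, and reads may have been split among them.

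Lair1 (chr7:3958675-4014806, mm9, minus strand) encodes a collagen receptor. It was low in resting cells, at 11.4, 10.3 and 12.6 CPM in Cre-only and 8.61, 14.7 and 14.7 CPM in Runx1 c-k/o cells. At 3 h it was at 1.08, 0.59 and 0.70 CPM and at 1.03, 1.77 and 0.65 CPM, which rested on 9 to 27 counts per library. The fall was 14.5-fold in Cre-only cells (log2 fold change -3.79, standard error 0.33, edgeR adjusted p = 5.25e-07) and 11-fold in Runx1 c-k/o cells (log2 fold change -3.47, standard error 0.32, edgeR adjusted p = 9.97e-07). The summed myeloid markers, which are known from cells that also express Fcgr2b, Pirb and Lair1, were likewise lower at 3 h, and their part in the falls of these 3 genes was not tested. Without Runx1 c-k/o 3 h replicate 2, the log2 fold changes in Runx1 c-k/o cells were -4.78 for Siglecg, -3.67 for Fcgr2b, -4.25 for Pirb and -3.91 for Lair1, each with an edgeR adjusted p under 0.05.

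Btla (chr16:45224428-45253008, mm9, plus strand) encodes a lymphocyte receptor whose ligand is HVEM, the product of Tnfrsf14. It fell 3.15-fold in Cre-only cells, from 722, 741 and 719 CPM to 214, 237 and 242 CPM (log2 fold change -1.65, standard error 0.10, edgeR adjusted p = 4.24e-08). The fall was 3.00-fold in Runx1 c-k/o cells, from 511, 411 and 495 CPM to 148, 159 and 165 CPM (log2 fold change -1.59, standard error 0.10, edgeR adjusted p = 7.71e-08).

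Cd72 and Cd5 were the receptors that rose. Cd72 (chr4:43459334-43467500, mm9, minus strand) encodes a lectin-type receptor that binds SHP-1 and is bound by semaphorin 4D. It was at 318, 328 and 317 CPM in resting and 425, 443 and 405 CPM in 3-h Cre-only cells, a 1.32-fold rise (log2 fold change 0.40, standard error 0.12, edgeR adjusted p = 0.00796). It went in Runx1 c-k/o cells from 263, 286 and 232 CPM to 483, 363 and 374 CPM (log2 fold change 0.64, standard error 0.12, edgeR adjusted p = 0.000330). With the RUVs factor in the edgeR fit the change was -0.0069 in Cre-only cells (edgeR adjusted p = 0.956) and 0.21 in Runx1 c-k/o cells (edgeR adjusted p = 0.0890). That factor itself separated the times, from 0.15 to 1.04 at rest and from -2.08 to -0.38 at 3 h, so that a fit with it takes up part of the activation effect. Tesk1 on the opposite strand shares 1423 exon bases with Cd72, 41.6% of its exon length, and had 325 to 1082 counts per library. The strand setting of the counting is not given in the sources used here, so that reads of Tesk1 in the Cd72 count cannot be told apart.

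Cd5 (chr19:10792633-10813464, mm9, minus strand) encodes a scavenger-type receptor known from T and B-1 cells. It was the lowest of the resting genes, at 4.92, 2.90 and 3.16 CPM in Cre-only and 3.46, 3.94 and 3.98 CPM in Runx1 c-k/o cells. After 3 h it was at 9.24, 9.02 and 5.42 CPM and at 10.8, 8.40 and 9.13 CPM. Every 3-h sample was above every resting sample of its genotype, a 2.16-fold rise in Cre-only cells (log2 fold change 1.10, standard error 0.24, edgeR adjusted p = 0.00103) and a 2.49-fold rise in Runx1 c-k/o cells (log2 fold change 1.32, standard error 0.24, edgeR adjusted p = 0.000291). With that factor, which tracks activation, the rise in Cre-only cells had an edgeR adjusted p of 0.0601. The 10 T cell markers other than Il7r summed to 5.81 to 11.6 CPM in resting and 7.96 to 9.62 CPM in 3-h Cre-only cells, and to 7.70 to 10.4 and 5.18 to 9.46 CPM in Runx1 c-k/o cells. Within the list, Il7r was higher at 3 h (93.0 to 110 against 1.20 to 2.41 CPM in Cre-only cells), as was Trac (3.41 to 4.25 against 0.31 to 0.77 CPM), and Cd4 was lower (0.064 to 0.52 against 1.88 to 3.47 CPM). The part of these markers in the rise of Cd5 was not tested.

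The phosphatase genes moved in opposite directions in Cre-only cells. Ptpn6 (chr6:124670725-124688732, mm9, minus strand), which encodes SHP-1, fell 1.42-fold, from 657, 663 and 643 CPM to 485, 450 and 447 CPM (log2 fold change -0.51, standard error 0.09, edgeR adjusted p = 0.000206). Its fall in Runx1 c-k/o cells was 1.55-fold, from 561, 611 and 591 CPM to 407, 379 and 350 CPM (log2 fold change -0.63, standard error 0.09, edgeR adjusted p = 3.31e-05). A transcript on the opposite strand shares 195 bases, 6.96% of the exon length of Ptpn6, but had at most 14 counts.

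Ptpn22 (chr3:103663718-103716170, mm9, plus strand) was at 53.3, 50.5 and 58.4 CPM in resting and 91.2, 94.3 and 99.6 CPM in 3-h Cre-only cells. It rose 1.76-fold (log2 fold change 0.81, standard error 0.10, edgeR adjusted p = 1.26e-05). The resting values in Runx1 c-k/o cells, 36.4, 47.3 and 42.5 CPM, overlapped with the 3-h values of 45.5, 50.1 and 50.1 CPM. The log2 fold change there was 0.21 (approximate 95% interval 0.0052 to 0.41, edgeR adjusted p = 0.0864), and Ptpn22 was the 1 member whose change on activation did not pass the test. It did pass without Runx1 c-k/o rest replicate 2 (log2 fold change 0.30, edgeR adjusted p = 0.0187) or without Runx1 c-k/o 3 h replicate 1 (0.25, edgeR adjusted p = 0.0356).

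**Figure D2:**
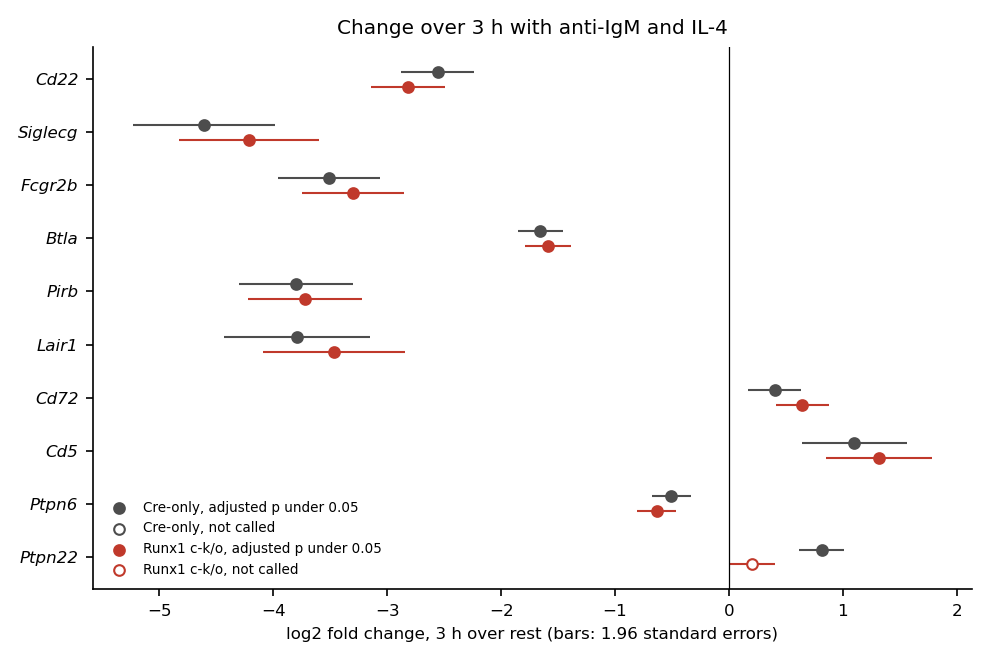
Log2 fold change from rest to 3 h (horizontal axis) of each gene in Cre-only (gray) and Runx1 c-k/o (red) cells, with approximate 95% intervals, filled where the edgeR adjusted p was under 0.05. The falls reach -4.61 for Siglecg in Cre-only cells, and the open point of Ptpn22 in Runx1 c-k/o cells, at 0.21, is the only change not called.

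The comparison of Runx1 c-k/o with Cre-only cells at rest addresses how the brakes on the BCR stand before activation. Of the 10 genes, 1 (Btla) was lower and 0 were higher at an edgeR adjusted p under 0.05, where 0.761% of all tested genes were lower and 0.731% higher. At an unadjusted p under 0.05 there were 3 members, all lower (Btla, Ptpn22 and Cd72), beside 1496 of the 13538 tested genes in either direction. DESeq2 called 2 members, both lower, beside 378 genes in either direction. The median log2 fold change of the members was -0.14, against 0.03 over all genes. The samples of the genotypes did not overlap for 5 members, Btla, Ptpn22, Cd22, Cd72 and Ptpn6, each lower in Runx1 c-k/o cells. Without overlap, 1577 of all tested genes were lower (11.6%) and 1627 higher.

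Btla was at 722, 741 and 719 CPM in resting Cre-only cells and at 511, 411 and 495 CPM in resting Runx1 c-k/o cells, which was 64.9% of the Cre-only mean. The difference was larger than the spread between replicates (log2 fold change -0.62, standard error 0.10, edgeR adjusted p = 0.00829). Of 14 alternative analyses, 13 kept it under 0.05. Without Cre-only rest replicate 2 the log2 fold change was -0.61 with an edgeR adjusted p of 0.0502. Without Runx1 c-k/o rest replicate 2, the lowest of the 3 values, it was -0.53 with an edgeR adjusted p of 0.0164. The summed B-1 markers were higher in the same Runx1 c-k/o samples without overlap, as was the marginal zone sum through Cr2. Singly, no B-1 marker passed at rest (edgeR adjusted p from 0.13 for Zbtb32 to 0.80 for Spn). The 3 follicular markers, with overlap, summed to 1922 to 2087 CPM in Cre-only and 1667 to 1973 CPM in Runx1 c-k/o cells at rest. Their part in the difference of Btla was not tested.

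The other 4 members without overlap did not pass the test at rest. Ptpn22 was at 77.8% of the Cre-only mean (log2 fold change -0.36, approximate 95% interval -0.56 to -0.16, edgeR adjusted p = 0.147), and DESeq2 gave it an adjusted p of 0.0246. Cd22 was at 81.4% (log2 fold change -0.30, interval -0.60 to 0.0045, edgeR adjusted p = 0.525) and Cd72 at 81.1% (-0.30, interval -0.53 to -0.071, edgeR adjusted p = 0.342). With 1 factor of unwanted variation in the fit, Ptpn22 (edgeR adjusted p = 0.0402) and Cd72 (edgeR adjusted p = 0.00253) passed. Ptpn6 was at 89.8% (log2 fold change -0.16, interval -0.33 to 0.017, edgeR adjusted p = 0.564).

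The remaining receptors overlapped between genotypes at rest. The log2 fold change was -0.13 for Siglecg (interval -0.66 to 0.40), -0.11 for Fcgr2b (-0.51 to 0.29), -0.016 for Pirb (-0.44 to 0.41), 0.14 for Lair1 (-0.34 to 0.63) and 0.038 for Cd5 (-0.45 to 0.53), with edgeR adjusted p from 0.836 to 0.984. In at least 1 direction, each interval includes a difference of the size measured for Ptpn22, so that one of that size was not excluded in that direction.

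At 3 h, 2 members (Ptpn22 and Btla) were lower and 0 higher in Runx1 c-k/o cells, where 1.30% of all tested genes were lower and 1.47% higher by edgeR. At an unadjusted p under 0.05 there were 4 members, all lower, beside 2194 of the 13538 tested genes in either direction. DESeq2 called 3 members, all lower, beside 709 genes in either direction. The median over the members was 0.0011, against 0.0073 over all genes. For 4 members, Ptpn22, Btla, Cd22 and Ptpn6, all Runx1 c-k/o samples lay below all Cre-only samples, where 1661 of all tested genes were lower (12.3%) and 1286 higher without overlap. The 3-h comparison shares no samples with the resting one, but both came from the same fit. Whether the same mice gave the samples of both times is not stated in the sources used here. The comparisons can therefore not be taken as independent.

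Ptpn22 showed the largest difference between genotypes among the members. At 3 h it was at 91.2, 94.3 and 99.6 CPM in Cre-only and 45.5, 50.1 and 50.1 CPM in Runx1 c-k/o cells, which was 51.0% of the Cre-only mean. The groups were far apart (log2 fold change -0.97, standard error 0.10, edgeR adjusted p = 0.000290), and the adjusted p stayed under 0.05 in all 14 alternatives, from 3.14e-18 to 0.00571. The 3 Runx1 c-k/o values at 3 h lay below each of the resting Cre-only values, 50.5 to 58.4 CPM. The B-1 markers summed to 75.8 to 89.5 CPM in the Cre-only and 102 to 122 CPM in the Runx1 c-k/o samples at 3 h. Among them Spn had 6.99 to 10.01 and 13.4 to 13.8 CPM and passed the test (edgeR adjusted p = 0.0201). Bhlhe41, Zbtb32 and Cd9 did not pass (edgeR adjusted p = 0.53, 0.57 and 0.21). Spn encodes CD43, the protein by which cells were removed in the purification of the resting cells. The part of these markers in the difference of Ptpn22 was not tested.

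Btla was at 214, 237 and 242 CPM in Cre-only and 148, 159 and 165 CPM in Runx1 c-k/o cells at 3 h, 68.1% of the Cre-only mean. The groups did not overlap (log2 fold change -0.55, standard error 0.10, edgeR adjusted p = 0.0109). Without Cre-only 3 h replicate 2 or replicate 3 the edgeR adjusted p was 0.0567 and 0.0585, with log2 fold changes of -0.53 and -0.52.

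Cd22 was at 242, 221 and 220 CPM in Cre-only and 121, 195 and 149 CPM in Runx1 c-k/o cells at 3 h, 68.0% of the Cre-only mean. This difference did not pass the test (log2 fold change -0.56, approximate 95% interval -0.86 to -0.25, edgeR adjusted p = 0.0860). It passed by DESeq2 (log2 fold change -0.52, DESeq2 adjusted p = 0.0321), with the factor of unwanted variation (-0.47, edgeR adjusted p = 0.00220) and without Runx1 c-k/o 3 h replicate 2 (-0.76, edgeR adjusted p = 0.0146). Without Runx1 c-k/o 3 h replicate 1, which had the lowest value, it was -0.38 (edgeR adjusted p = 0.244). Ptpn6 was at 82.2% of the Cre-only mean (log2 fold change -0.28, interval -0.46 to -0.11, edgeR adjusted p = 0.130). It passed in 2 of 14 alternatives, those with the factor of unwanted variation.

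**Figure D3:**
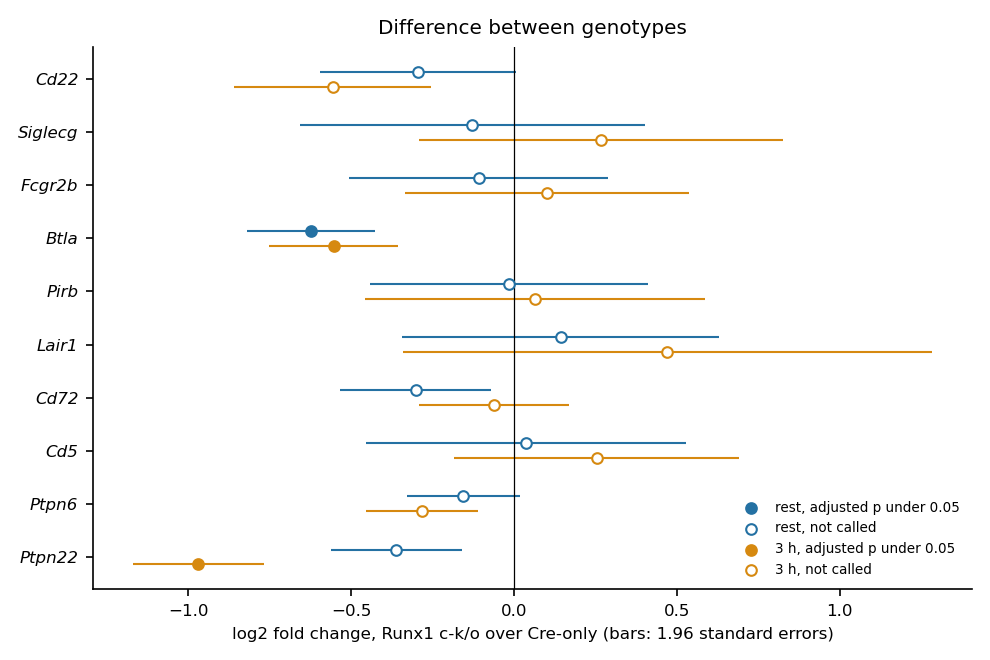
Log2 fold change of Runx1 c-k/o over Cre-only cells (horizontal axis) at rest (blue) and at 3 h (orange), with approximate 95% intervals, filled where the edgeR adjusted p was under 0.05. Btla is filled at both times (-0.62 and -0.55) and Ptpn22 at 3 h (-0.97), and the other points are open.

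The receptors that fell most on activation were not called between genotypes at 3 h, and their values turned on 1 library. In Runx1 c-k/o 3 h replicate 2, Siglecg, Fcgr2b, Pirb and Lair1 were each the highest of the 6 samples. On the scale of log2(CPM + 0.5), this library lay above the mean of the Cre-only 3-h samples by 1.00 for Siglecg, 0.84 for Lair1, 0.73 for Pirb and 0.64 for Fcgr2b, and the median of the 787 other strongly falling genes by 0.54. Cd22 and Btla, which also fell, lay 0.22 and 0.53 below that mean in the same library. With all samples, the log2 fold change between genotypes was 0.27 for Siglecg, 0.10 for Fcgr2b, 0.064 for Pirb and 0.47 for Lair1 (edgeR adjusted p from 0.565 to 0.918). Without the library it was -0.30 for Siglecg, -0.27 for Fcgr2b and -0.46 for Pirb (edgeR adjusted p = 0.310, 0.375 and 0.129), and 0.023 for Lair1. The direction of the first 3 genes therefore depended on that sample, in which the summed myeloid markers were also the highest of the 3-h samples (64.3 CPM), and their part in these values was not tested.

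**Figure D4:**
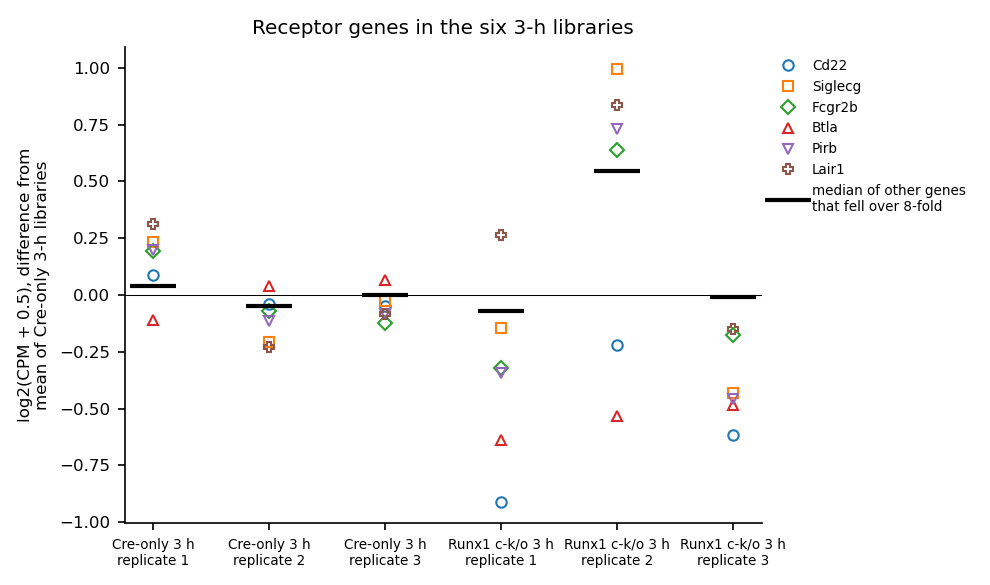
Difference of log2(CPM + 0.5) from the mean of the Cre-only 3-h samples (vertical axis) for the 6 falling receptors in each 3-h library, with a bar for the median of the 787 other genes with a log2 fold change under -3 in Cre-only cells. In Runx1 c-k/o 3 h replicate 2 the bar stands at 0.54 and Siglecg at 1.00, while Btla is below 0 in all Runx1 c-k/o libraries.

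Cd72 and Cd5 overlapped between genotypes at 3 h. Cd72 was at 95.8% of the Cre-only mean (log2 fold change -0.062, interval -0.29 to 0.17, edgeR adjusted p = 0.804) and Cd5 at 120% (0.25, interval -0.18 to 0.69, edgeR adjusted p = 0.563).

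Whether the genotype effect itself changed with activation was tested by the interaction. It passed for 0 of the 10 members by edgeR, where 0.0813% of all genes passed. At an unadjusted p under 0.05 it passed for 686 of the 13538 tested genes and for 1 member. That gene was Ptpn22, with a difference of log2 fold changes of -0.61 (standard error 0.14, unadjusted p = 0.00122, edgeR adjusted p = 0.254). By DESeq2 the Ptpn22 interaction was -0.56 with an adjusted p of 0.0248, and with the factor of unwanted variation in edgeR -0.61 with an adjusted p of 0.0319. The rise of Ptpn22 in Cre-only cells and its smaller change in Runx1 c-k/o cells thus differed by these fits and not by edgeR without the factor. For Btla the interaction was 0.068 (interval -0.21 to 0.35, edgeR adjusted p = 0.999).

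The genes whose profile over the 12 samples was most like that of Ptpn22 were found by the root mean square difference of centered log2(CPM + 0.5). They were Epb4.1l2 (0.198), Abhd6 (0.205) and Nrip1 (0.210). Nrip1 averaged 52.8 ± 2.72 and 80.8 ± 6.85 CPM (SD, n = 3) in resting and 3-h Cre-only cells and 36.4 ± 2.92 and 49.9 ± 11.4 CPM in Runx1 c-k/o cells. The closest member was Cd72, at rank 772 of all tested genes with a difference of 0.357.

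Other genes of the pathway were read from 4 lists. Of 16 further inhibitory receptors 15 were tested, and 4 rose and 10 fell on activation in each genotype, with medians of -1.49 for the Cre-only and -1.68 for the Runx1 c-k/o genotype. Fcrl1, an Fc receptor-like gene of B cells, fell from 304 ± 11.6 to 32.5 ± 2.11 CPM in Cre-only cells (log2 fold change -3.23, edgeR adjusted p = 9.03e-09), and Pecam1, which encodes CD31, from 275 ± 7.75 to 8.62 ± 0.26 CPM. Lilrb4a, an ITIM receptor of the same family as Pirb, rose instead, from 16.4 ± 3.6 to 110 ± 9.91 CPM. It was the gene of this list that passed between genotypes at 3 h, with 107, 102 and 121 CPM in Cre-only and 47.0, 46.3 and 54.7 CPM in Runx1 c-k/o cells (log2 fold change -1.16, standard error 0.16, edgeR adjusted p = 0.00199). At rest 0 of the 15 passed by edgeR. There were 3 at an unadjusted p under 0.05, beside 1496 of all 13538 tested genes. DESeq2 called 1, lower, beside 378 of all genes.

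The ligands and sialic acid enzymes of the receptors made up a list of 11 genes. St6gal1, the enzyme that makes the α2,6-linked sialic acid bound by CD22, averaged 355 ± 29.9 CPM in resting Cre-only and 193 ± 16.5 CPM in resting Runx1 c-k/o cells (log2 fold change -0.88, standard error 0.13, edgeR adjusted p = 0.00643). The 3-h means were 100 ± 6.90 and 56.0 ± 11.5 CPM (-0.84, standard error 0.14, edgeR adjusted p = 0.00541). The 3-h call was lost where only the 2 groups compared were fitted (edgeR adjusted p = 0.0603). St6gal1 was the gene of this list called at rest, where 0.761% of all tested genes were lower. At 3 h 2 genes were lower, St6gal1 and Sema4d, the CD72 ligand (-0.68, edgeR adjusted p = 0.0236), and 1 was higher, Lgals9, which encodes galectin-9 (0.74, edgeR adjusted p = 0.00180). The call of Sema4d held in 8 of 14 alternatives. On activation 2 genes rose and 7 fell in Cre-only cells, and 1 rose and 7 fell in Runx1 c-k/o cells, among them Cmah, which makes the sialic acid form that mouse CD22 prefers, from 540 ± 33.0 to 15 ± 0.51 CPM in Cre-only cells.

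Among 24 genes of cytoplasmic restraint, 4 rose and 15 fell on activation in Cre-only cells, where 38.6% of all genes rose and 36.4% fell. In Runx1 c-k/o cells 4 rose and 14 fell, against 37.7% and 36.6% of all genes. Lyn, whose kinase phosphorylates the ITIMs, fell from 364 ± 10.2 to 120 ± 5.05 CPM in Cre-only cells (log2 fold change -1.60, edgeR adjusted p = 1.77e-08). Between genotypes at 3 h, Trib1 (0.85, edgeR adjusted p = 0.000290) and the phosphatase gene Ptpn7 (0.59, edgeR adjusted p = 0.00518) were higher and the phosphatase gene Ptpn1 (-0.41, edgeR adjusted p = 0.0276) was lower, the last in 7 of 14 alternatives. At rest 0 passed by edgeR, with 4 at an unadjusted p under 0.05 and 0 by DESeq2, beside 1496 and 378 of all tested genes. For contrast, of 17 activating BCR and co-receptor genes 3 rose and 12 fell on activation in each genotype, with medians of -0.84 for the Cre-only and -1.07 for the Runx1 c-k/o genotype. Between genotypes, Fyn was higher at rest (0.79, edgeR adjusted p = 0.0378, in 9 of 14 alternatives), and at 3 h Cd81 was higher (0.74, edgeR adjusted p = 0.00653) and Pik3cd lower (-0.48, edgeR adjusted p = 0.0361, in 4 of 14 alternatives).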

How the data were processed

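RNA-seq counts of 12 samples were used. Per the labels and the study's methods, the authors built stranded libraries of poly(A) RNA with ERCC spike-ins, sequenced paired ends, aligned them with TopHat2 2.0.11 to mm9 (NCBIM37) and counted reads per Ensembl gene by featureCounts. Raw counts were deposited. The strand setting and the treatment of reads with several alignments are not given in the sources used here. The authors' own tests used DESeq2 with RUV-seq factors.

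From the counts, genes were kept by filterByExpr of edgeR 4.0.16 (R 4.3.3) with a minimum count of 10, normalized by TMM and fitted over all 12 samples with 1 term per group by the robust quasi-likelihood method. Adjusted p is Benjamini-Hochberg over all 13538 genes, with a threshold of 0.05. Approximate 95% intervals are normal intervals from the standard error. An exact permutation test of 3 against 3 samples cannot go below 0.1. Named list genes are, in each comparison, drawn from at most 4 per list with the smallest adjusted p under 0.05, and Klrg1 was filtered out. The members and lists were chosen with earlier results of these data known. ITIM patterns were searched in translated transcripts, and promoters came from RefSeq (GRCm38.p6).

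Alternatives were DESeq2's size factors, other filters on low counts, DESeq2 1.42.0 with its Wald test, a fit with 1 RUVs factor, a replicate block, only the groups compared, and each sample left out. Deviations from group means of resting and 3-h samples with the same number correlated over all genes at 0.144 to 0.275 in Cre-only cells and at -0.264, -0.254 and 0.254 in Runx1 c-k/o cells, so that the numbers paired the Cre-only samples only. The sources used here do not say what the numbers mark.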

Additional observations from a re-analysis of the deposited data

How the results depend on the processing

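The counts of members called on activation, 10 in Cre-only cells and 9 in Runx1 c-k/o cells, stayed within 1.5 times under all alternatives. At rest the 1 member called became 2 by DESeq2's Wald test and 3 with 1 RUVs factor in edgeR or in DESeq2, and ranged from 0 to 1 when each sample was left out. At 3 h the 2 called became 4 with the factor in either tool, and ranged from 1 to 3 with a sample left out. The interaction count of 0 became 1 by DESeq2 and with the factor in either tool, and stayed 0 with each sample left out. With the replicate block, 1 member was called at rest, 2 at 3 h and 0 by the interaction, and neither this block nor that within genotype changed the call of any member. The count at least 10 in every sample left out Lair1 and gave Cd72 a rise of 0.24 in Cre-only cells (edgeR adjusted p = 0.0632).

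With the factor in edgeR and in DESeq2, which separates rest from 3 h, directions turned for Pirb at rest (0.052 and 0.074), Cd5 at rest (-0.015 and -0.014) and the Cd72 change in Cre-only cells (-0.0069 and -0.12). With each sample left out, log2 fold changes at rest ran from -0.19 to 0.020 for Fcgr2b, -0.049 to 0.021 for Pirb and -0.10 to 0.32 for Cd5. At 3 h they ran from -0.18 to 0.014 for Cd72, -0.27 to 0.31 for Fcgr2b, -0.30 to 0.53 for Siglecg and -0.46 to 0.29 for Pirb. The interaction ran from -0.16 to 0.43 for Fcgr2b, -0.17 to 0.66 for Siglecg, -0.12 to 0.67 for Lair1, -0.44 to 0.31 for Pirb, -0.067 to 0.36 for Cd5 and -0.023 to 0.15 for Btla. The cause of these changes was not tested. Of the values of single members, 730 kept their direction and side of the threshold, 16 newly passed, 8 no longer passed and 21 turned direction.

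Over all genes, 202 were called at rest, against 378 by DESeq2, 524 and 611 with the factor in edgeR and DESeq2, and 84 to 135 with a sample left out. At 3 h 375 were called, against 709, 1036 and 1230, 152 with only those groups fitted, and 182 to 637 with a sample left out. The interaction gave 11, against 83, 142 and 253, 4 with the block within genotype, and 4 to 29 with a sample left out. In the main fit the p-values rest on a spread estimated jointly over the 12 samples, with 3 per group. Lair1 and Cd5 rested on 9 to 237 counts per library.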
